A study of Mus musculus with 6 samples.

Results

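The immunoglobulin constant genes Ighm, Ighd, Igha, Ighg2b, Igkc, Iglc1, Iglc2 and Iglc3 were followed across 6 mouse lung libraries together with Jchain and Mzb1, which serve antibody assembly and secretion. These 10 genes were taken by symbol from a table of 19639 genes, and all 10 were present and had enough counts to be tested. They were chosen with their difference between the groups already known, so that difference is given here as a description and is supported by no test. The libraries came from the lungs of RPM mice, a name used for a model of small cell lung cancer with loss of Rb1 and Trp53 and overexpression of Myc. All 6 libraries share this model background. The 3 shControl libraries were from mice given a lentivirus with a control hairpin, and the 3 shThoc1 libraries from mice given one with a hairpin against Thoc1, a subunit of the mRNA export complex THO. Strain, age, time after infection, the driver of recombination and the cells reached by the virus are not given in the labels. Nothing in the labels tells if the replicates were separate animals, so any p-value reflects how far these particular libraries scatter, perhaps for technical reasons.

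An antibody is built from paired heavy and light chains, and the constant part of the heavy chain sets its class. Ighm and Ighd encode the constant parts of IgM and IgD, the first classes on a B cell, while class switching places Ighg2b or Igha next to the variable segment to give IgG2b or IgA. The light chain is kappa (Igkc) or lambda (Iglc1, Iglc2, Iglc3), and most mouse antibodies use kappa. Plasma cells, the antibody-secreting end stage of B cells, hold very large amounts of these mRNAs and are known to settle in airways and mucosal tissue. In bulk tissue, more plasma cells and more immunoglobulin mRNA per plasma cell cannot be told apart.

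The lambda constant genes were the members with the closest sequences, which bears on how far their counts can be read separately. Over the coding part of the GENCODE M21 transcripts, Iglc2 and Iglc3 were 96.5% identical, with 11 differing bases in 314 aligned, and the longest identical run was 79 bases. Iglc2 and Iglc1 were 74.8% identical, with 79 differing bases in 313 aligned and a longest shared run of 19 bases. Reads that fall in the shared stretches of Iglc2 and Iglc3 could be split between these genes by the authors' counting, so their separate values are uncertain. The first 120 coding bases are shown 5′ to 3′, on chromosome 16, with capitals in Iglc1 and Iglc3 at the bases that differ from Iglc2.
Iglc2: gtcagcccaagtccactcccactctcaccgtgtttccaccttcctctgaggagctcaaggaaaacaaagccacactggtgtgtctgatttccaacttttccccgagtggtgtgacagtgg
Iglc1: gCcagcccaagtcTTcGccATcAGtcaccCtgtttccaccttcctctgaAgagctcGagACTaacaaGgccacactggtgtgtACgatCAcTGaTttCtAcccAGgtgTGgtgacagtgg
Iglc3: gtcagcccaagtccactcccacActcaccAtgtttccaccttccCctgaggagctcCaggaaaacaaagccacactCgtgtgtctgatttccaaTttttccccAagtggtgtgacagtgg
In this stretch Iglc1 differed from Iglc2 at 28 bases and Iglc3 at 7.

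Jchain, the joining chain that links IgA and IgM into polymers, was the 1 of 10 members with an entry in the RefSeq promoter table (GRCm38.p6, a build other than that of the counts). Its promoter, at chr5:88527848-88528147 on the minus strand, is shown 5′ to 3′ because Jchain, like most of the antibody genes, was higher in every shThoc1 library than in any control.
Jchain: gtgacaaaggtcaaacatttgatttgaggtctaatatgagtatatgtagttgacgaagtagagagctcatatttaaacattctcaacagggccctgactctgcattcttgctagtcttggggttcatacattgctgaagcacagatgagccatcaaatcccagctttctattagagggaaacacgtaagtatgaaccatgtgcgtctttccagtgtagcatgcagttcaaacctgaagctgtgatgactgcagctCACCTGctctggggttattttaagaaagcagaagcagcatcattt
The capitals mark the 1 match to the E-box CAGGTG, read here on the opposite strand. Both strands were searched for CAGGTG, which 20.2% of the 32851 promoters of this length held, and for the octamer ATGCAAAT, an element known from immunoglobulin promoters, which 1.74% held. The octamer letters were not found in this window.

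Total counts ran from 9934583 in shThoc1 replicate 2 to 15025199 in shThoc1 replicate 1. Values below are CPM (counts scaled to a common library size) on TMM-scaled library sizes, listed in the order of replicates 1, 2 and 3. Thoc1 itself stood at 85.7, 80.2 and 85.8 CPM in shControl and at 53.4, 69.5 and 61.4 CPM in shThoc1, lower in each shThoc1 library than in any shControl library, with a log2 fold change of −0.45 (SE 0.17). The summed CPM of 15 lung epithelium markers was 14180, 25790 and 23600 in shControl and 46630, 12460 and 41070 in shThoc1. By that sum shThoc1 replicates 1 and 3 were above every control, and shThoc1 replicate 2 was below every control. Library shThoc1 replicate 2 stood apart from the others in its group: its 22 B cell identity genes summed to 2056 CPM and its 12 endothelial markers to 384.0 CPM, against 181.0 and 234.6 CPM and 5482 and 4581 CPM in shThoc1 replicates 1 and 3. Results that rest on that library are therefore also given without it. Whether shThoc1 replicates 2 and 3, whose titles begin alike, came from 1 animal is not stated.

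All 10 members had a positive log2 fold change, meaning higher in shThoc1, with a median of 1.91 against 0.03 over all 15287 genes tested, of which 52.1% were above 0. For 8 members the lowest shThoc1 library exceeded the highest shControl library, which 11.1% of the genes tested also did. Ighd and Igha were the 2 whose groups overlapped. By edgeR's quasi-likelihood test 0 of the 10 members and 0% of all genes tested had an adjusted p under 0.05. An unadjusted p under 0.05 was reached by 8 members and by 16.2% of the genes (2473 of 15287). DESeq2 called 6 members, and 5.72% of the genes for which it gave an adjusted p, in either direction. In edgeR without shThoc1 replicate 2, Iglc2 alone of the members was called (adjusted p 0.0488), and 1.65% of all genes tested in that fit. By the authors' deposited adjusted p-values, 6 of the 9 members with one were under 0.05 and higher in shThoc1, as were 2.04% of 16010 genes. For the members these adjusted p-values were the same as those of the DESeq2 fit, so they are not a separate result. Because the members were chosen on this contrast, nothing is read from these counts.

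**Figure D1:**
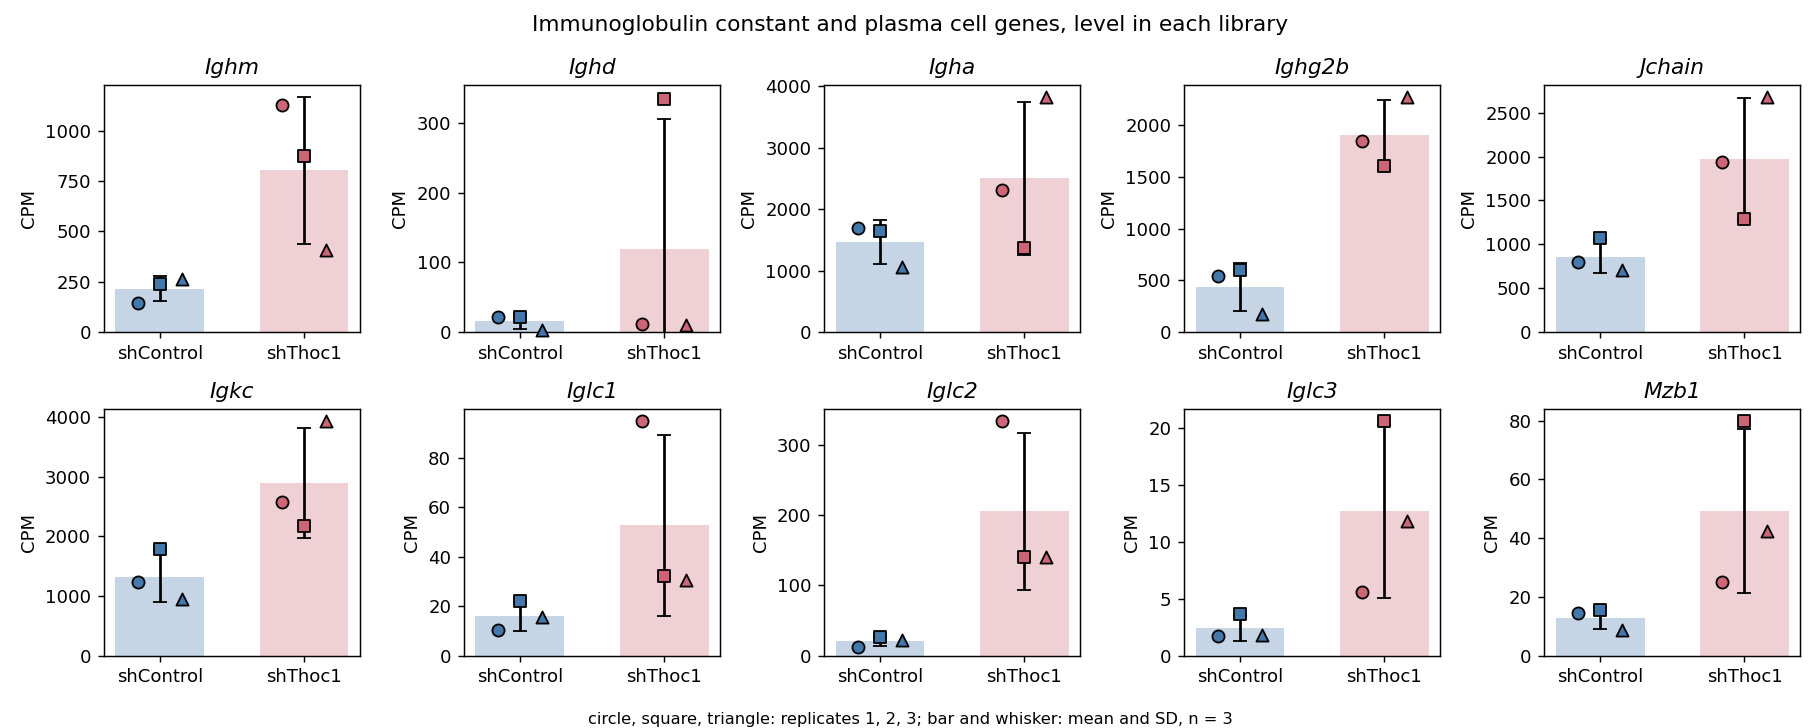
CPM of each of the 10 members in every library, with 1 point per library and the bar and whisker giving the mean and SD of 3 libraries in each group (the whisker of Ighd in shThoc1 is cut at 0). The groups overlap for Ighd and Igha, and for the other 8 every shThoc1 point lies above every shControl point.

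Of the heavy chain genes of unswitched B cells, Ighm stood at 146.4, 237.8 and 264.3 CPM in shControl and at 1129, 875.0 and 406.9 CPM in shThoc1. Each shThoc1 library was above each shControl library, and shThoc1 replicate 3 was the closest to the controls. The means were 216 ± 61.8 and 804 ± 366 CPM (SD, n = 3), a ratio of 3.72 and a fitted log2 fold change of 1.89 (SE 0.45). Ighd, which a B cell makes from the same primary transcript as Ighm by splicing, was at 21.5, 20.9 and 3.00 CPM in shControl and at 12.0, 335.1 and 9.73 CPM in shThoc1. One library alone, shThoc1 replicate 2, was high, and the other shThoc1 values lay within the shControl range. The log2 fold change of Ighd was 2.97 (SE 1.58) with that library and −0.54 without it.

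The Ighd to Ighm ratio of counts is of interest because IgD is carried by mature B cells and is largely lost in plasma cells. It was 0.147, 0.0878 and 0.0114 in shControl and 0.0106, 0.383 and 0.0239 in shThoc1. The highest ratio of the 6 was in shThoc1 replicate 2 and the lowest in shThoc1 replicate 1, just under shControl replicate 3, while shThoc1 replicate 3 lay inside the control range.

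Of the switched classes, Igha, the constant gene of IgA, stood at 1696, 1641 and 1056 CPM in shControl and at 2318, 1361 and 3829 CPM in shThoc1. The groups overlapped, since shThoc1 replicate 2 fell between shControl replicates 2 and 3. Means were 1464 ± 354 and 2503 ± 1244 CPM (SD, n = 3), with a log2 fold change of 0.77 (SE 0.44) that was 0.34 without shThoc1 replicate 3, its highest library. Ighg2b, the constant gene of IgG2b, was at 537.0, 600.4 and 170.4 CPM in shControl and at 1843, 1605 and 2276 CPM in shThoc1. Its groups were far apart, and the 3 shThoc1 libraries were close to each other. Means were 436 ± 232 and 1908 ± 340 CPM (SD, n = 3), a ratio of 4.38 and a log2 fold change of 2.13 (SE 0.51).

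The other heavy chain genes in the table, which are not among the 10 members, are given beside these. Ighg2c, a close relative of Ighg2b, stood at 522.8, 767.2 and 394.9 CPM in shControl and at 510.4, 1162 and 1546 CPM in shThoc1, with overlapping groups and a log2 fold change of 0.93 (SE 0.48, edgeR adjusted p 0.359). Ighg3 was at 61.3, 48.6 and 4.54 CPM in shControl and at 18.8, 77.4 and 36.9 CPM in shThoc1, also overlapping. Ighe, the constant gene of IgE, had 8, 9 and 23 counts in shControl and 145, 100 and 31 counts in shThoc1, so the groups were separate. The ratio of Ighg2b to Ighg2c counts was 1.03, 0.783 and 0.432 in shControl and 3.61, 1.38 and 1.47 in shThoc1. Reads shared by the IgG genes could be divided between them by the counting, which is not described in the sources used here. Ighg1, Ighg2a and Iglc4 were not found by symbol among the 19639 genes, so they have no values here.

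Among light chain genes Igkc, the single kappa constant gene, stood at 1245, 1794 and 944.5 CPM in shControl and at 2586, 2183 and 3943 CPM in shThoc1. Every shThoc1 library was above every control, by a small margin for shThoc1 replicate 2. The means were 1328 ± 431 and 2904 ± 922 CPM (SD, n = 3), a ratio of 2.19 and a log2 fold change of 1.13 (SE 0.38).

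The ratios of group means were wider for the lambda constant genes than for Igkc. Iglc2 stood at 12.9, 26.4 and 22.0 CPM in shControl and at 334.2, 141.0 and 140.3 CPM in shThoc1, a ratio of means of 10.04 and a log2 fold change of 3.33 (SE 0.49). This was the widest separation of the 10 members, and shThoc1 replicate 1 was more than double the other shThoc1 libraries. Iglc1 was at 10.4, 22.1 and 15.7 CPM in shControl and at 95.1, 32.3 and 30.8 CPM in shThoc1, with a log2 fold change of 1.71 (SE 0.55). Here too replicate 1 was the highest, and without it the log2 fold change was 0.996. Iglc3 rested on few reads, with 25, 46 and 25 counts in shControl and 80, 209 and 159 counts in shThoc1. In shThoc1 its highest library was replicate 2, and its log2 fold change was 2.39 (SE 0.61) with that library and 1.775 without it. The Iglc2 to Iglc3 ratio of counts was 60.1 in shThoc1 replicate 1 and between 6.83 and 12.0 in the other 5 libraries, so these near copies did not keep 1 ratio.

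Of the assembly genes, Jchain stood at 795.4, 1067 and 704.7 CPM in shControl and at 1934, 1290 and 2682 CPM in shThoc1. The groups did not overlap, and shThoc1 replicate 2 was the nearest to the controls. The means were 856 ± 188 and 1968 ± 697 CPM (SD, n = 3), with a log2 fold change of 1.20 (SE 0.36). Mzb1, an endoplasmic reticulum protein that helps antibody assembly and secretion in plasma cells and marginal zone B cells, was at 14.5, 15.6 and 8.64 CPM in shControl and at 25.2, 80.0 and 42.5 CPM in shThoc1. Its highest value was in shThoc1 replicate 2, the library that was lowest of its group for Jchain. The log2 fold change of Mzb1 was 1.93 (SE 0.49) with that library and 1.32 without it. Counts of Mzb1 per count of Jchain were between 0.0123 and 0.0182 in 5 libraries and 0.0620 in shThoc1 replicate 2. For each count of Igha, Jchain had 0.469, 0.650 and 0.667 in shControl and 0.834, 0.948 and 0.700 in shThoc1, each shThoc1 ratio above the controls.

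**Figure D2:**
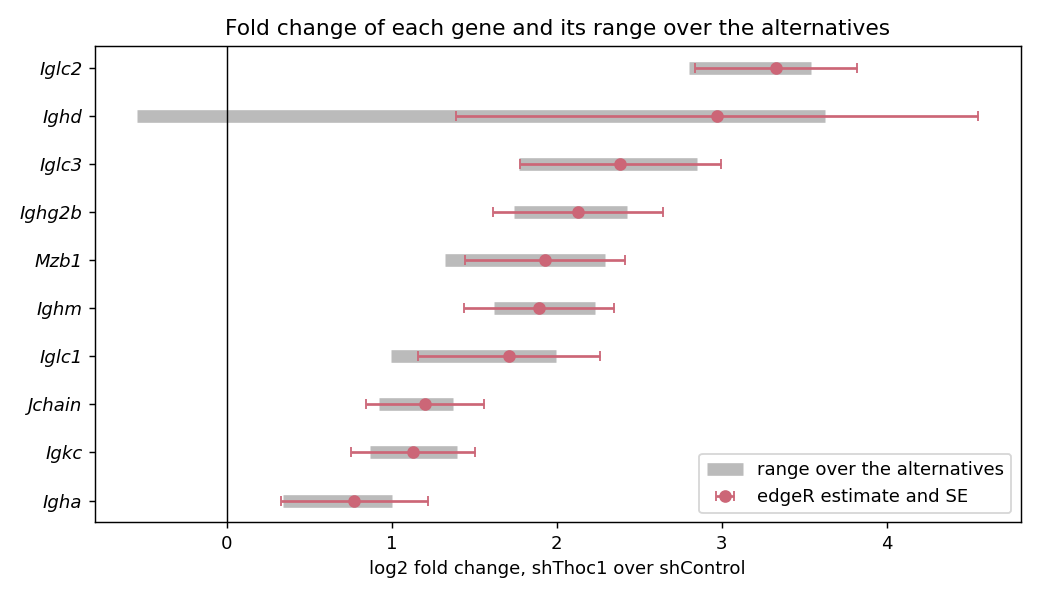
Log2 fold change of shThoc1 over shControl for each member, with its SE, as points with whiskers, over a grey bar for the range under the alternative settings, libraries left out included. The bar of Ighd reaches −0.54, and those of the other 9 members lie above 0.

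The members did not share a single highest library. Ighm, Iglc1 and Iglc2 were highest in shThoc1 replicate 1, Ighd, Iglc3 and Mzb1 in shThoc1 replicate 2, and Igha, Ighg2b, Igkc and Jchain in shThoc1 replicate 3. At the low end, 6 members were lowest in shControl replicate 3 and the other 4 in shControl replicate 1. The members' median log2 fold change was 1.56 when shThoc1 replicate 2 was left out.

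Levels between genes were compared as CPM per kilobase of exon (GENCODE M21 lengths). In shControl the order of mean CPM per kilobase was Igkc (2496), Igha (548.8), Jchain (339.9), Ighg2b (162.8), Ighm (114.6), Iglc1 (35.4), Iglc2 (33.4), Mzb1 (10.6), Ighd (7.96) and Iglc3 (5.34). Between neighbours, the ranges over the 3 libraries separated Igkc from Igha, Jchain from Ighg2b, Ighm from Iglc1 and Iglc2 from Mzb1, and overlapped for the other 5 pairs. In shThoc1 the first 5 kept this order, with Igkc at 5459 and Igha at 938.1, while Iglc2 (335.2) came before Iglc1 (116.2) with ranges that did not overlap. Parts of this order depend on the length used. With the shortest transcript as the length, Iglc2 (44.6) and Mzb1 (44.1) came before Iglc1 (35.4) in shControl. In shThoc1, Ighg2b (1713) then came before Jchain (1413), and Mzb1 (168.1) and Ighd (148.3) before Iglc1 (116.2).

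The 8 constant genes together made up 0.382%, 0.432% and 0.251% of all counts in shControl and 0.797%, 0.668% and 1.03% in shThoc1. The mean share was 0.355 ± 0.0935% for shControl and 0.832 ± 0.183% for shThoc1 (SD, n = 3), and the groups did not overlap. Shares of counts within a library carry exact 95% binomial intervals for counting error only. Reads are not independent molecules where no molecular identifiers were used, so true errors are wider.

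Within the heavy chain members, Igha held 70.6%, 65.6% and 70.7% of counts in shControl and 43.7%, 32.6% and 58.7% in shThoc1. The lowest control was above the highest shThoc1 library, and the widest interval of an Igha share ran from 70.1% to 71.3%. Ighg2b held 22.4%, 24.0% and 11.4% in shControl and 34.8%, 38.4% and 34.9% in shThoc1, again without overlap. Ighm held 6.10%, 9.51% and 17.7% in shControl and 21.3%, 21.0% and 6.24% in shThoc1. That share overlapped, with shThoc1 replicate 3 close to shControl replicate 1. Ighd held 8.02% in shThoc1 replicate 2 and at most 0.895% in any other library. These are shares of reads from genes of unlike length, not of molecules. They also leave out Ighg2c, Ighg3 and Ighe. Ighg2c alone had 7467, 9631 and 5392 counts in shControl and 7345, 11769 and 20812 in shThoc1. With these 3 genes in the sums every share would be smaller, and the gaps between the groups could differ.

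Lambda genes together held 1.97%, 2.83% and 4.01% of light chain member counts in shControl and 14.4%, 8.16% and 4.43% in shThoc1. All 3 shThoc1 libraries were above the controls, but shThoc1 replicate 3 only slightly so, with an interval of 4.26% to 4.61% against 3.69% to 4.36% in shControl replicate 3. The kappa share was accordingly 97.1 ± 1.01% in shControl and 91.0 ± 5.05% in shThoc1 (SD, n = 3), a difference of −6.06 percentage points that was −3.36 without shThoc1 replicate 1 and −8.34 without shThoc1 replicate 3. Within lambda, Iglc2 held 51.4%, 50.6% and 55.7% in shControl and 76.9%, 72.7% and 76.7% in shThoc1. Iglc1 held 41.6%, 42.4% and 39.7% in shControl and 21.9%, 16.6% and 16.9% in shThoc1. The groups were separate for both, and the ratio of Iglc2 to Iglc1 counts went from between 1.19 and 1.40 to between 3.52 and 4.55.

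**Figure D3:**
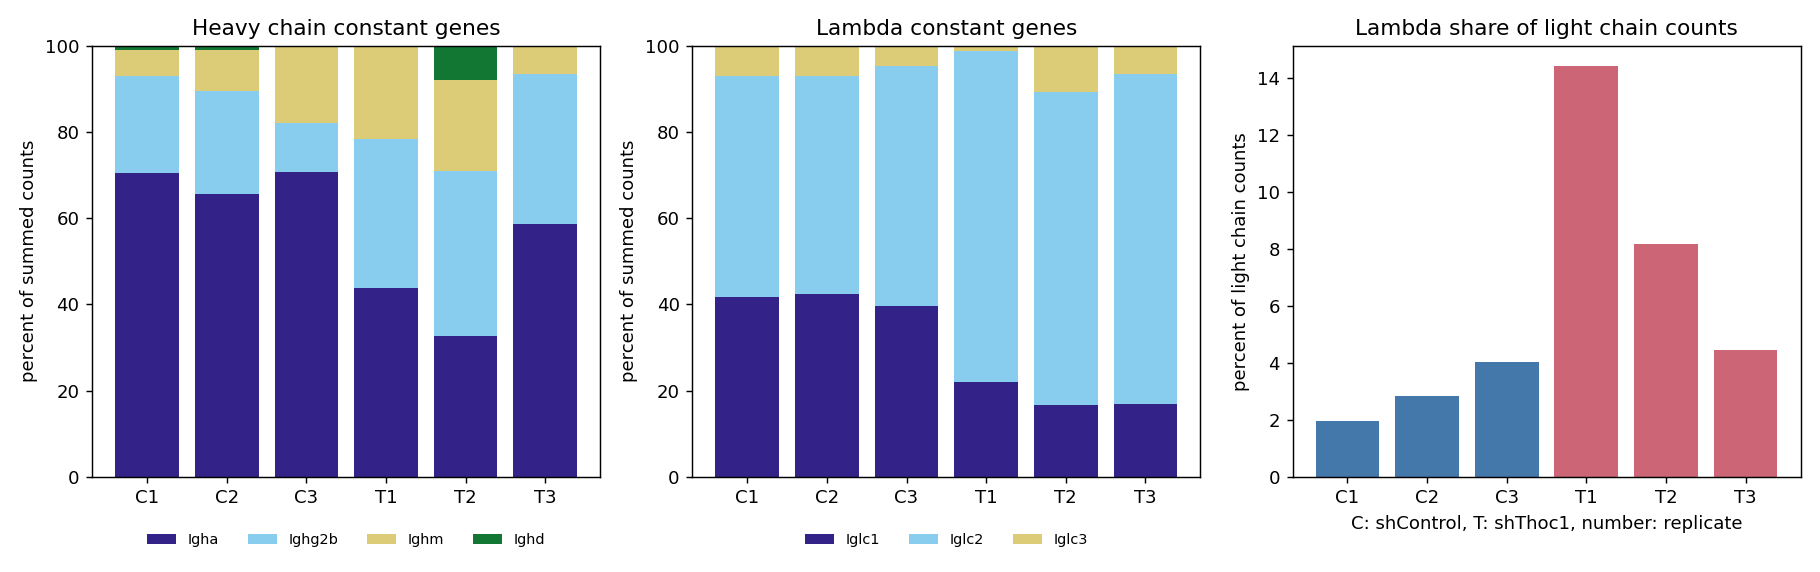
Shares of counts in each library, in percent, of Igha, Ighg2b, Ighm and Ighd among heavy chain members, of lambda among light chain members, and of Iglc1, Iglc2 and Iglc3 among lambda members. Igha and Iglc1 have a smaller share in every shThoc1 library than in any shControl library, and Ighg2b, lambda and Iglc2 a larger one.

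Variable segments, which differ from one B cell clone to the next, were set beside the constant genes. The segments named below are examples outside the rule for named genes. Counts summed over 87 Igkv segments were 6199, 3912 and 2575 for shControl, and 11596, 4025 and 10602 for shThoc1. Over 36 Ighv segments they were 604, 737 and 214, against 1234, 368 and 618. For both loci shThoc1 replicate 2 fell inside the control range. Over 3 Iglv segments every shThoc1 sum (4329, 748 and 853) was above every control (536, 572 and 284). Iglv1 had 511, 512 and 249 counts in shControl and 2084, 437 and 585 counts in shThoc1, and these raw counts overlapped. On scaled library sizes it was at 35.8, 40.8 and 18.2 CPM in shControl and at 145.0, 43.2 and 43.5 CPM in shThoc1. The CPM did not overlap, by a small margin for shThoc1 replicates 2 and 3. Iglv3 had 16, 43 and 23 counts in shControl and 2220, 268 and 228 counts in shThoc1, with every shThoc1 library above the controls and most of its reads in the library where Iglc2 was highest. In mice Iglv3 is known to be joined mainly to Iglc2. For kappa, Igkv1-110 had 137, 313 and 112 counts in shControl and 1070, 719 and 5212 counts in shThoc1. It made up 49.2% of the counts of 87 Igkv segments in shThoc1 replicate 3, where Igkc was highest, while the leading segment of each other library held between 9.23% and 17.9%.

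Among 12 tested regulators of the plasma cell state, 10 had a positive log2 fold change. Their median was 0.52, and 0.32 without shThoc1 replicate 2. For 3 of the 12, every shThoc1 library was above every control, as it was for 11.1% of all genes tested. Xbp1, which drives the secretory programme, was at 208.9, 239.2 and 159.3 CPM in shControl and at 244.4, 204.9 and 205.7 CPM in shThoc1, overlapping. Prdm1, the regulator that turns B cells into plasma cells, was at 11.1, 24.3 and 8.42 CPM in shControl and at 17.1, 13.0 and 21.8 CPM in shThoc1, also overlapping. Irf4, needed for plasma cell formation, was at 14.7, 9.88 and 6.01 CPM in shControl and at 15.8, 79.2 and 23.1 CPM in shThoc1. Its value in shThoc1 replicate 2 was far above the rest, and its groups were separate, by a small margin for shThoc1 replicate 1. Ikzf3, of the same list, was at 6.93, 5.58 and 4.69 CPM in shControl and at 9.87, 83.8 and 11.8 CPM in shThoc1, also separate. Xbp1 and Prdm1 were chosen after their values were seen, as were the other genes of this and the next paragraph that are not members and not among the 2 of each list with the smallest unadjusted p.

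Plasma cell surface and survival genes were positive in 16 of 19 cases, and their median log2 fold change was 0.82, or 0.88 without shThoc1 replicate 2. For 7 of the 19, every shThoc1 library was above every control, against 11.1% of all genes tested. Slamf7, a receptor of plasma cells and cytotoxic lymphocytes, was at 8.19, 9.08 and 6.96 CPM in shControl and at 18.2, 47.9 and 20.95 CPM in shThoc1, each shThoc1 value above the controls. Il6ra was separate too, at 25.1, 47.4 and 43.0 CPM in shControl and at 104.0, 63.7 and 88.8 CPM in shThoc1. Sdc1 (CD138), a plasma cell surface marker that epithelial cells also make, was at 214.9, 325.0 and 174.3 CPM in shControl and at 261.6, 126.4 and 263.8 CPM in shThoc1, overlapping. Tnfrsf17 (BCMA), a survival receptor of plasma cells, had 13, 8 and 8 counts in shControl and 22, 9 and 29 in shThoc1, few reads and overlapping groups. For antibody folding and secretion, 20 of 35 genes were above 0 with a median of 0.07, and 16 of 35 with a median of −0.075 without shThoc1 replicate 2. For 2 of the 35, every shThoc1 library was above every control, and for 3 every shThoc1 library was below. Derl3, an endoplasmic reticulum degradation factor, was at 5.18, 6.61 and 3.37 CPM in shControl and at 10.4, 15.5 and 13.3 CPM in shThoc1. Ero1b was at 43.2, 43.0 and 43.7 CPM in shControl and at 60.4, 86.0 and 68.7 CPM in shThoc1. Both were separate, while the chaperone Hspa5 overlapped, at 685.3, 823.2 and 570.4 CPM against 559.1, 769.4 and 508.7 CPM.

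B cell markers were high in 1 library. The log2 fold changes of the 22 B cell identity genes were all positive (median 2.66), but with shThoc1 replicate 2 left out 15 of 22 were, and the median was 0.17. Their summed CPM was 240.0, 151.2 and 128.8 in shControl and 181.0, 2056 and 234.6 in shThoc1, and none of the 22 was at 0 in any library. For 5 of the 22, every shThoc1 library was above every control, as it was for 11.1% of all genes tested. The 2 of the list with the smallest unadjusted p were among those 5. Blnk, an adaptor of B cell receptor signalling, was at 7.49, 4.78 and 3.59 CPM in shControl and at 9.03, 52.9 and 12.2 CPM in shThoc1. Fcrla, an Fc receptor-like protein of B cells, was at 4.76, 4.70 and 3.66 CPM in shControl and at 7.02, 48.7 and 8.32 CPM in shThoc1. Ms4a1 (CD20), which plasma cells lose and which was chosen after its values were seen, overlapped, at 13.0, 4.62 and 3.81 CPM in shControl and at 8.34, 243.6 and 13.6 CPM in shThoc1. In shThoc1 replicates 1 and 3 the B cell sum was thus 181.0 and 234.6 CPM, inside the shControl range. The median log2 level of the 22 genes was 3.02, 2.49 and 2.04 in shControl and 3.08, 6.34 and 3.28 in shThoc1. By that measure shThoc1 replicates 1 and 3 also lay above every control, by a small margin for shThoc1 replicate 1. The 9 members other than Ighd were higher in both libraries than in any control. The 10 germinal centre and class switching genes tested had a median of 1.53, or 0.66 without shThoc1 replicate 2, and the 11 antibody receptor and transport genes a median of 0.12, or 0.013 without that library.

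Markers of other cell types differed between the libraries as well, and their part in the antibody values was not tested. The 22 T cell markers summed to 95.2 to 167.5 CPM in shControl and to 235.9, 2232 and 241.8 CPM in shThoc1, with none at 0. The 12 endothelial markers summed to 1401 to 2421 CPM in shControl and to 5482, 384.0 and 4581 CPM in shThoc1. The 15 lung epithelium markers, whose sums are given above, had 14 log2 fold changes above 0. Their median was 0.52, or 0.78 without shThoc1 replicate 2. The 14 macrophage markers summed to 3145, 3910 and 2246 CPM in shControl and to 8146, 5099 and 6113 CPM in shThoc1. This sum was higher in every shThoc1 library, but Lyz2 (lysozyme) made up most of it in each library. Lyz2 was at 2355, 3144 and 1772 CPM in shControl and at 6538, 3186 and 5176 CPM in shThoc1. Its groups were separate, as were those of Csf1r. The median log2 level of the 14 was 5.68, 5.5 and 5.27 in shControl and 5.2, 5.26 and 5.15 in shThoc1. By that measure every shThoc1 library was lower than any control, by a small margin. The log2 fold change was above 0 for 9 of the 14 and below 0 for 5, with a median of 0.24. The 20 dividing cell markers summed to 1147 to 2311 CPM in shControl and to 106.3, 1043 and 211.2 CPM in shThoc1. The 24 neuroendocrine tumour markers summed to 156.2 to 1850 CPM in shControl and to 106.6 to 467.2 CPM in shThoc1, and Neurod1, Dll3, Sez6, Nefl, Nefm and Elavl3 were at 0 in at least 1 library. The 6 tested red blood cell genes, a measure of blood left in the tissue, had a median log2 fold change of 2.01. Of 227 list genes outside the members, edgeR called 0, and 68 had an unadjusted p under 0.05. With shThoc1 replicate 2 left out, the T cell median log2 fold change went from 2.68 to 0.78, with all 22 genes still positive. The macrophage median log2 fold change went from 0.24 to −0.043. The endothelial median went from 1.02 to 1.499, with 4 of 12 genes called, and the red blood cell median from 2.01 to 2.35. The dividing cell median went from −2.14 to −3.74, with 13 of 20 called lower, and the neuroendocrine median from −3.03 to −6.82, with 1 of 24 called lower. Over all genes tested in the fit without shThoc1 replicate 2, 1.65% were called, in either direction.

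**Figure D4:**
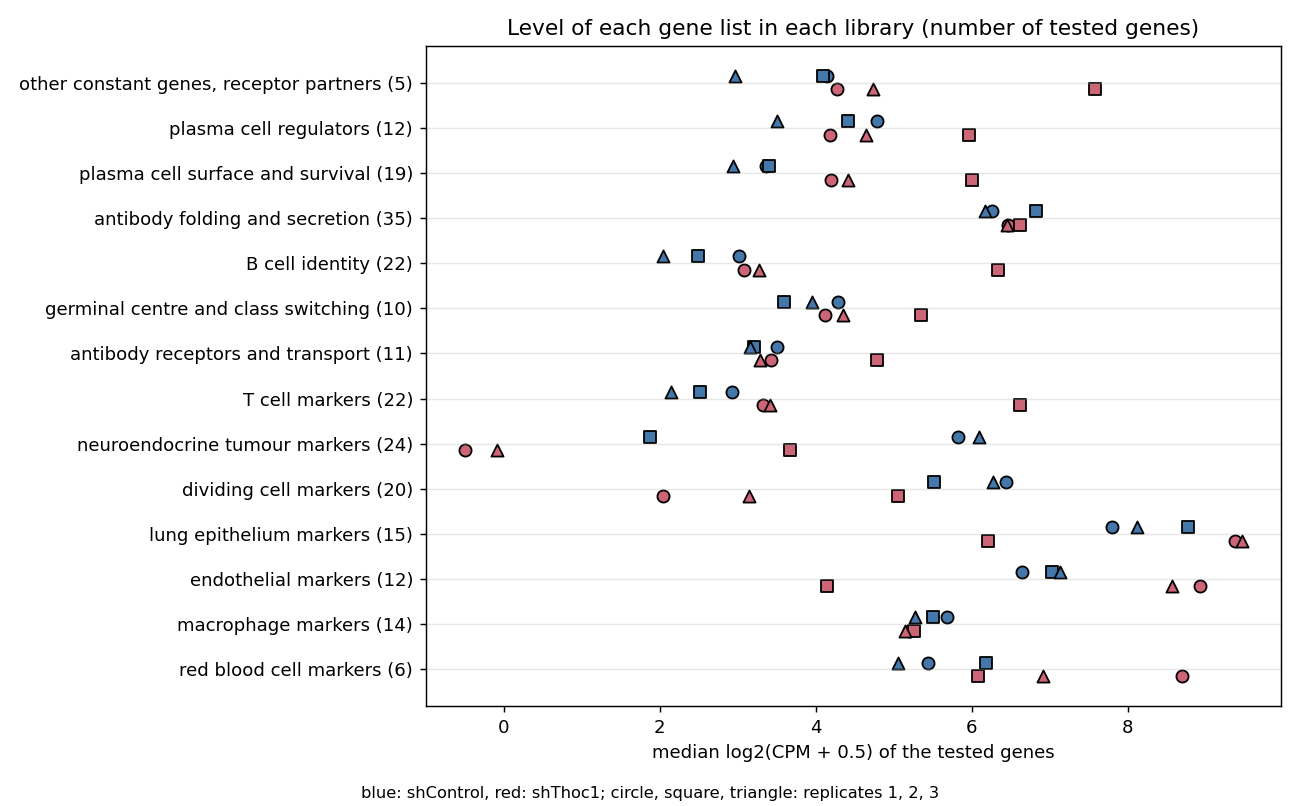
Median log2(CPM + 0.5) of each gene list in every library, with 1 point per library. The B cell and T cell lists are highest in shThoc1 replicate 2, where the endothelial list is lowest, and the dividing cell list is lower in every shThoc1 library than in any shControl library.

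Among 13831 genes with a mean log2 CPM of at least 1, those most like the members across the 6 libraries were ranked by Pearson r of log2(CPM + 0.5), as a description of 6 points that share the same group split. The summed heavy chain members were most like Zfp78 (r = 0.999), Dhx16 (0.994), Nod2 (0.993), Crtc2 (0.989) and Slc9a4 (0.987). The summed light chain members were most like Tnip2 (0.996), Zfp950 (0.995), Ifih1 (0.993), Tapbp (0.989) and Zfp759 (0.988). Jchain was most like Mon1a (0.999), Ptcd1 (0.994), Clk1 (0.992), Spr (0.990) and Pbx2 (0.987). The 5 genes most like Mzb1 were Pld4 (0.996), Psmb9 (0.995), Casp4 (0.994), Scimp (0.991) and Zbtb32 (0.988). The leading genes of the 4 rankings were different genes.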

How the data were processed

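The authors deposited 1 table with raw counts per gene and library, on GRCm39 per the submitters' processing notes. The aligner, the counting tool and the use of strand are not given in the sources. Per its headers the authors' log2 fold changes, p-values and adjusted p-values are held there too. Of these, the adjusted p-values and the direction were used, for counts of calls and beside the DESeq2 fit. Libraries were grouped by their labels, with replicate numbers in record order that pair nothing. Counts were tested with edgeR 4.0.16 (R 4.3.3, quasi-likelihood F-test, filterByExpr, TMM, robust), adjusting by Benjamini-Hochberg over 15287 genes. The other 4352 of 19639 genes were not tested. An adjusted p under 0.05 was a call, SEs come from the F statistic, and the common biological coefficient of variation was 0.480. Shares of counts have exact Clopper-Pearson 95% intervals. The code was checked on simulated data. The members and the 15 lists were chosen with earlier results of these data known. A further gene is not reported here. The rule for named genes took the 10 members, Thoc1, the 2 genes of each list with the smallest unadjusted p and the 5 genes most like the antibody genes. Alternatives were DESeq2 1.42.0, other scaling and filters, libraries left out, and shThoc1 replicates 2 and 3 summed.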

Additional observations from a re-analysis of the deposited data

How the results depend on the processing

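Over all genes edgeR called 0, DESeq2 called 916 and fits with 1 library left out called between 0 and 258. Among the members DESeq2 called 6, and fits with 1 library left out called between 0 and 1, which was Iglc2 without shThoc1 replicate 2 (adjusted p = 0.0488). Among the list genes DESeq2 called 24 and the fits with 1 library left out between 0 and 19, and the highest of these counts were all without shThoc1 replicate 2. The cause of the higher counts was not tested. Without shThoc1 replicate 2 the log2 fold change of Ighd reversed to −0.542, and it reached 3.628 without shThoc1 replicate 3. The members' median ranged from 1.56 to 2.06 with 1 library left out. Of 120 member values under the alternatives, 112 had the same direction and call, 7 were newly called and 1 reversed. The count of members without overlap on plain library totals, an alternative chosen after seeing the data, was 8. The share of all genes without overlap on those totals is not given here, so that count has no background beside it. No paired analysis was possible because the titles give no number that pairs a shControl with a shThoc1 library. Depth limits Iglc3 most, with 25 counts in each of 2 shControl libraries.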
